A study of Mus musculus with 2 samples.

Results

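The collagen genes were followed through 2 single-cell RNA libraries of sorted tumour-infiltrating natural killer (NK) cells from mice. A gene counted as a collagen gene when its symbol was Col, a number, the letter a and a number, and 44 of the 53715 genes in the files matched. One library was made from CT26_b2m-/- colon carcinoma of animals given IL-15SA+IL-21Fc, called the combination here, and 1 from the same tumour under IL-15SA alone. In both libraries the cells carried CD45.2 and NKp46 and lacked CD3 at the sort, per the labels' protocols, and the tumour cells lacked B2m, the light chain of MHC class I. The tumours had been opened with collagenase, dispase, hyaluronidase and DNase, and lymphocytes were enriched on a density gradient ahead of the sort. The labels give no dose, time, strain or age, and what IL-15SA and IL-21Fc are is not spelled out beyond their names. Cells were pooled by treatment ahead of loading, which leaves 1 library for each treatment, so no test was possible and every interval covers counting error only. The title of the series names IL-21 in place of IL-15SA as the single agent; the sample titles were followed.

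Each library was divided by the share of its UMIs (unique molecular identifiers, 1 per captured transcript) that came from Sparc, Cald1, Pcolce and Lrp1. Barcodes with 0.15% or more are called matrix-high, and all others the remaining barcodes. Sparc is a collagen-binding matrix protein, Cald1 an actin-binding protein, Pcolce an enhancer of procollagen cleavage and Lrp1 an endocytic receptor. The combination library held 1168 matrix-high barcodes of 12435 (9.39%, exact binomial interval 8.89 to 9.92%), and the IL-15SA library held 320 of 8386 (3.82%, 3.42 to 4.25%). Matrix-high barcodes carried 11.1% of the UMIs in the combination library and 4.08% in the IL-15SA library. Their median depth was 2055 UMIs in the combination library and 2333.5 in the IL-15SA library, against 2361 and 3069 in the remaining barcodes of the same libraries. The libraries shared 60 barcode sequences.

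Collagens are secreted proteins whose alpha chains wind around each other into a stiff helix, either as copies of 1 chain or as a fixed mixture of partner chains. Fibrillar collagens form the cables of connective tissue, type IV collagen forms the mesh of basement membranes, and the others bind to fibrils, form beaded filaments or span the plasma membrane. In tumours most collagen is laid down by fibroblasts and other mesenchymal cells and by some tumour cells, while NK cells carry inhibitory and adhesive receptors that bind it. Chains of 1 helix are often read from neighbouring genes, so whether partner chains were measured together is part of the description below.

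The annotated sites of the main genes, in GENCODE M21 on GRCm38, were as follows. All 44 gene IDs are protein-coding genes there, on 15 chromosomes. Col1a2 spans chr6:4504814-4541544 on the plus strand and Col1a1 spans chr11:94936224-94953042 on the plus strand, without exonic overlap with another gene. Col3a1 lies at chr1:45311538-45349706 (plus), and its nearest coding neighbour, 24615 bases away on the minus strand, is Col5a2. Col8a1 lies at chr16:57624258-57754737 (minus) and Col8a2 at chr4:126286793-126314330 (plus). Col4a1 (chr8:11198423-11312826, minus) and Col4a2 (chr8:11312805-11449287, plus) are read away from each other, and their first exons overlap by 22 bases. Of the 44 members, 13 overlap the exons of another annotated gene, and whether counting used strand is not given in the sources used here.

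The upstream stretches of 4 genes are shown for the genes that the results below turn on, Col1a2 as the most counted member, Col3a1 as the member whose UMIs were gathered in a few barcodes, and Col8a1 and Col8a2 as partner chains with unlike matrix-high levels. Each is the 250 bases before the start site in the RefSeq promoter table (GRCm38.p6), 5′ to 3′ on the gene's strand, and 35 of the 44 members had an entry there. The Col1a2 stretch lies before the RefSeq start but inside the GENCODE span given above, which begins further upstream. Capitals mark TATAAA and CCAAT, searched on both strands.
Col1a2 (chr6:4505368-4505617, plus): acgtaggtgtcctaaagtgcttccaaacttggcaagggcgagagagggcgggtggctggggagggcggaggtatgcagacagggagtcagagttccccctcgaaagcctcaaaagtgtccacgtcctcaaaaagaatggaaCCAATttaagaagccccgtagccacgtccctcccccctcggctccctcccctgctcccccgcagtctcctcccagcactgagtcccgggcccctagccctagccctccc
Col3a1 (chr1:45311288-45311537, plus): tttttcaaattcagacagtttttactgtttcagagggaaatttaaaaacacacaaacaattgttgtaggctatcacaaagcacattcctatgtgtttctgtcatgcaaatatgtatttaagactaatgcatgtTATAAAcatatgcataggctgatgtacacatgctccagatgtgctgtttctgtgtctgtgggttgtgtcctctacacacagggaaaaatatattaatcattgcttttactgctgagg
Col8a1 (chr16:57754738-57754987, minus): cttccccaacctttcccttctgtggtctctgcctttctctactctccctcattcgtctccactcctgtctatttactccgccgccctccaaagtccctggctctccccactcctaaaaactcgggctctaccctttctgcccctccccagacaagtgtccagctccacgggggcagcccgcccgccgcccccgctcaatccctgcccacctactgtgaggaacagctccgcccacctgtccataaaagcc
Col8a2 (chr4:126286544-126286793, plus): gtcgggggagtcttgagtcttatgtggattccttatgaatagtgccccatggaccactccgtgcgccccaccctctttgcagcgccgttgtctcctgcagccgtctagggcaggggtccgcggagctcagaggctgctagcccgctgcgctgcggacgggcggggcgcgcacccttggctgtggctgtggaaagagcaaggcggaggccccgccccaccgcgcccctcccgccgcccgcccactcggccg
The bases that the first exons of Col4a1 and Col4a2 share (chr8:11312805-11312826, plus strand) are given in the next line to show how closely the pair is joined.
Col4a1 and Col4a2: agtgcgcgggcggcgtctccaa
The Col1a2 stretch held 1 CCAAT starting at position -109 and the Col3a1 stretch 1 TATAAA starting at -117, counted from the start site, while the Col8a1 and Col8a2 stretches held neither. Of all 32851 promoter stretches of this length in the table, 12.4% held TATAAA and 33.85% held CCAAT in at least 1 orientation. Guanine and cytosine made up 62.0% of the Col1a2 stretch, 35.2% of that of Col3a1, 60.8% of that of Col8a1 and 70.0% of that of Col8a2, against a median of 52.4% in the table. These matches describe letters in a window and were not tested against the counts.

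At least 1 UMI was counted for 43 of the 44 members, 41 in the combination library, 36 in the IL-15SA library and 34 in both. Col5a2, which pairs with Col5a1 in type V collagen, had 0 UMIs in both libraries. A count of 0 in these files can come from how reads were assigned to genes as well as from a missing transcript. In all, 16 members had 50 or more UMIs and are described by their levels, and 27 had between 1 and 49. Levels are given in CPM, the UMIs of a gene per 1000000 UMIs of the barcodes in question.

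**Figure D1:**
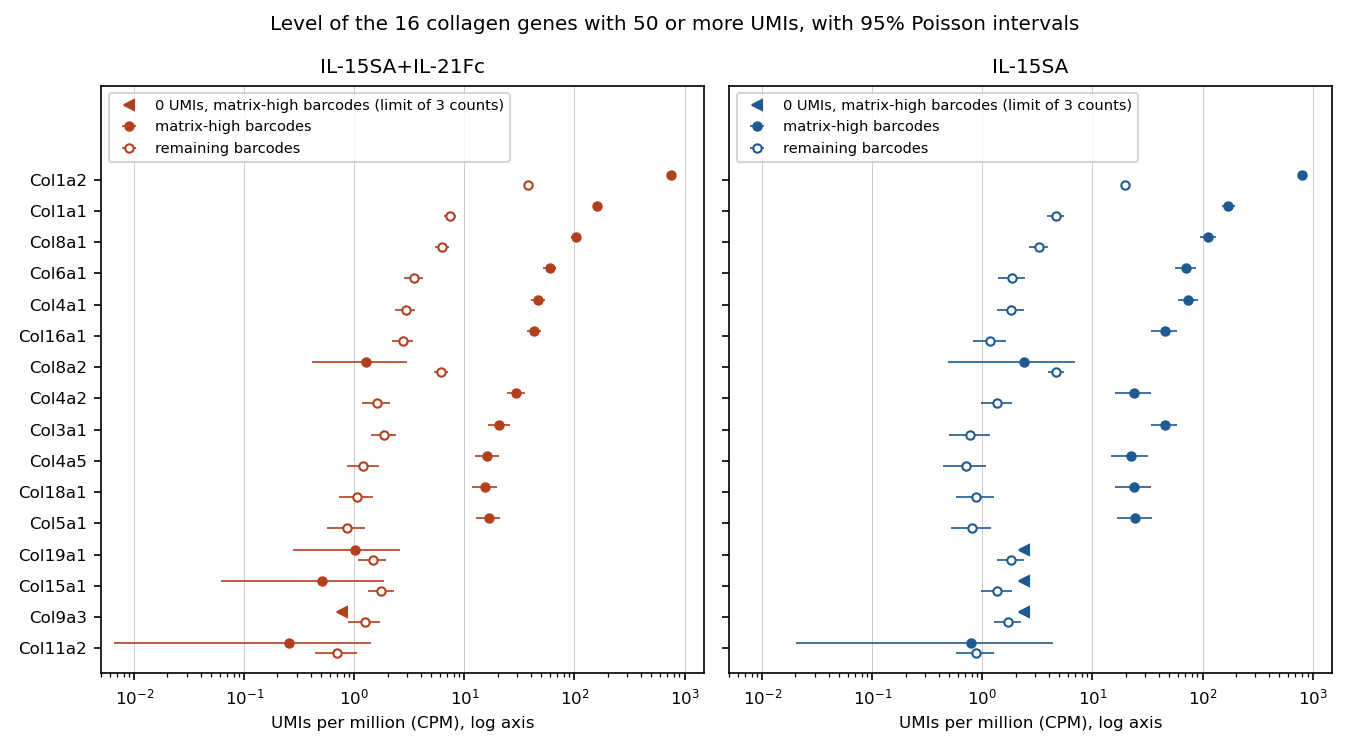
CPM of the 16 collagen genes with 50 or more UMIs (log axis) in the combination library on the left and the IL-15SA library on the right, with filled points for matrix-high and open points for remaining barcodes, bars for 95% Poisson intervals and triangles for the limit that 0 UMIs allow. In matrix-high barcodes 11 genes sit far to the right, while Col8a2, Col19a1, Col15a1, Col9a3 and Col11a2 do not.

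Summed over all members, matrix-high barcodes held 1276 CPM of collagen transcripts in the combination library (95% Poisson interval 1241 to 1312) and 1424 CPM in the IL-15SA library (1359 to 1492). Remaining barcodes held 82.1 CPM in the combination library (78.9 to 85.3) and 50.05 CPM in the IL-15SA library (47.5 to 52.7). The matrix-high level was thus 15.6 times the remaining level in the combination library (14.8 to 16.3) and 28.5 times in the IL-15SA library (26.6 to 30.5). Matrix-high barcodes gave 65.9% of all collagen UMIs in the combination library and 54.8% in the IL-15SA library, so a large share was counted outside them. Of members at 5 CPM or more in either set, 11 of 12 were at least 5-fold higher in matrix-high barcodes of the combination library, where 8.28% of 10482 genes were. In the IL-15SA library 11 of 11 were, where 10.3% of 10516 genes were. The barcodes were chosen by genes that work with collagen, so these counts describe the choice and nothing is read from them.

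Around the threshold the collagen level had no step that both libraries shared. Barcodes with 0.15 to 0.17% of the selection genes held 415 CPM of collagens in the combination library (124 barcodes) and 925 CPM in the IL-15SA library (33 barcodes). Those with 0.13 to 0.15% held 421 CPM in the combination library (108 barcodes) and 440.2 CPM in the IL-15SA library (62 barcodes). In the combination library the collagen sum was 66.0 CPM in barcodes without a selection UMI, 181 CPM at 0.05 to 0.1%, 647 CPM at 0.15 to 0.2% and 2247 CPM at 0.5% or more. The same bins of the IL-15SA library held 41.3, 169.9, 925 and 2560.4 CPM. Between the end bins Ncr1, which encodes NKp46, ran the other way, though not at every step. It had 1582 CPM without a selection UMI and 178 CPM at 0.5% or more in the combination library, and 1487 CPM and 347 CPM in the IL-15SA library.

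**Figure D2:**
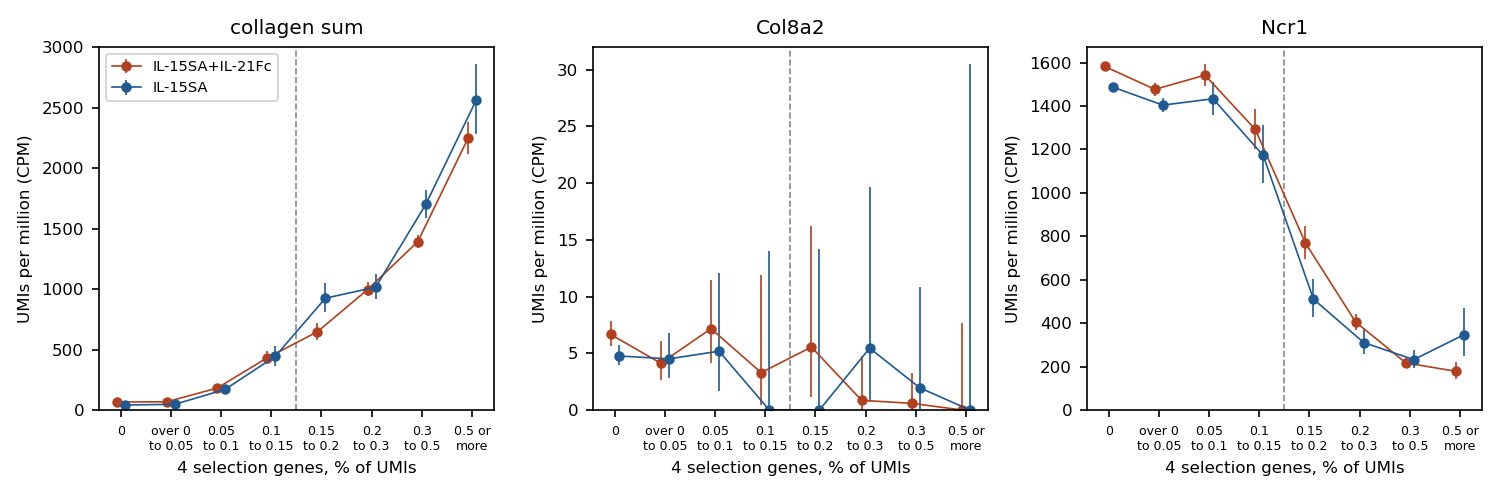
CPM of the collagen sum, Col8a2 and Ncr1 (panels, with 95% Poisson intervals) in barcodes binned by the share of UMIs from the 4 selection genes, for the combination library (red) and the IL-15SA library (blue), with the 0.15% threshold dashed. The collagen sum climbs through the bins from 66.0 to 2247 CPM in the combination library and from 41.3 to 2560.4 CPM in the IL-15SA library. Ncr1 is lower in the last bin than in the first in both libraries, though not at every step. In the IL-15SA library it has 232 CPM at 0.3 to 0.5% (192 to 278) and 347 CPM at 0.5% or more (250 to 469). In the combination library Col8a2 has 6.66 CPM without a selection UMI (5.63 to 7.82) and 0.583 CPM at 0.3 to 0.5% (0.0148 to 3.25). In the IL-15SA library no bin above the threshold holds more than 2 Col8a2 UMIs.

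Among fibrillar collagens, the 2 chains of type I collagen led. Col1a2, the alpha 2 chain, had 747.7 CPM in matrix-high barcodes of the combination library (720.8 to 775) and 796 CPM in those of the IL-15SA library (747 to 847). Col1a1, the alpha 1 chain, had 161 CPM (149 to 174) and 172 CPM (149.9 to 196) in the same sets. Type I collagen is usually built from more alpha 1 than alpha 2 chains, yet the UMIs ran the other way in both libraries. Per kilobase of exonic sequence, which is 12426 bases for Col1a2 and 6563 for Col1a1 with all isoforms joined, the matrix-high levels were 60.2 CPM per kb for Col1a2 and 24.5 for Col1a1 in the combination library. In the IL-15SA library they were 64.0 and 26.2 CPM per kb. Because 1 UMI stands for 1 captured transcript, values per kb here and below are no length correction and rank no chains. Col1a2 made up 58.6% of the collagen UMIs of matrix-high barcodes in the combination library (57.2 to 60.0%) and 55.9% in the IL-15SA library (53.5 to 58.2%). Col5a1, a chain that regulates the width of fibrils, had 16.6 and 24.6 CPM. Col11a2, a chain of cartilage-type fibrils, had 1 UMI in each matrix-high set and 22 and 26 UMIs in the remaining barcodes of the combination and IL-15SA libraries.

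Col3a1, whose product forms fibrils beside type I collagen in soft tissue, had a large part of its UMIs in a few barcodes. It had 81 UMIs in 43 matrix-high barcodes of the combination library (20.7 CPM, 16.4 to 25.7) and 57 UMIs in 18 of the IL-15SA library (45.2 CPM, 34.2 to 58.5). The 3 barcodes with most Col3a1 gave 33 of those 81 UMIs (40.7%) and 38 of the 57 (66.7%). For Col1a2 the 3 fullest barcodes gave 2.26% in the combination library and 5.98% in the IL-15SA library. One of the 3 fullest Col3a1 barcodes of the combination library held 307 UMIs of Dcn, the gene of decorin, a proteoglycan that coats collagen fibrils and a fibroblast marker, and the others held 12 and 1. In the IL-15SA library the 3 barcodes held 3, 61 and 1 Dcn UMIs.

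Matrix-high barcodes were then split by Dcn, a split chosen after the values were seen and prompted by these same barcodes, so it restates the gathering of Col3a1 and is no separate evidence of it. Those with 2 or more Dcn UMIs numbered 12 in the combination library and 5 in the IL-15SA library. Col3a1 had 516 CPM in these 12 barcodes (351 to 732) and 1027 CPM in these 5 (711 to 1435). In each library 2 barcodes carried most of it, with 28 of 31 UMIs in the combination library and 28 of 34 in the IL-15SA library, and the others held 3 UMIs over 10 barcodes and 6 UMIs over 3. In the matrix-high barcodes with 0 or 1 Dcn UMI, Col3a1 had 12.98 CPM in the combination library (9.64 to 17.1) and 18.7 CPM in the IL-15SA library (11.9 to 28.1). Col1a2 differed far less than Col3a1 between the sides of the split. It had 832 (618 to 1097) against 746 CPM (719 to 774) in the combination library. In the IL-15SA library it had 1329 (966 to 1784) against 781 CPM (733 to 832), with intervals apart. Col1a1 had 300 against 159 CPM and Col6a1 149.8 against 57.9 CPM in the combination library, with intervals apart. In the IL-15SA library they had 151 against 173 and 60.4 against 70.8 CPM. Col4a1 had 242 against 70.0 CPM in the IL-15SA library, with intervals apart, and 49.9 against 46.7 CPM in the combination library. Col8a1 had 33.3 CPM in the Dcn barcodes of the combination library (4.03 to 120.3) against 105 CPM in the others (94.9 to 116). The 5 Dcn barcodes of the IL-15SA library held 0 UMIs of it, with an interval up to 111 CPM, against 116 CPM in the others (98.1 to 137), so the intervals overlapped in both libraries. Lum, which encodes another fibroblast proteoglycan, had 1 UMI in matrix-high barcodes of the combination library and 2 in those of the IL-15SA library.

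**Figure D3:**
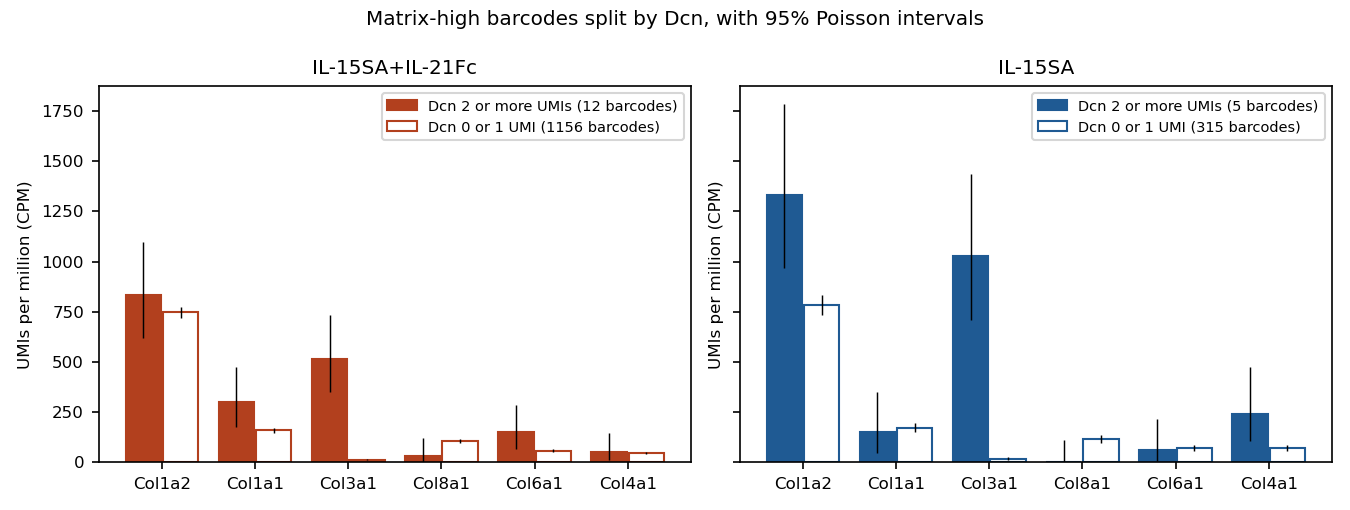
CPM of 6 collagen genes (bars, with 95% Poisson intervals) in matrix-high barcodes with 2 or more Dcn UMIs (filled) and with 0 or 1 (open), for the combination library on the left (12 and 1156 barcodes) and the IL-15SA library on the right (5 and 315 barcodes). Col3a1 has 516 and 1027 CPM in the filled bars against 12.98 and 18.7 CPM in the open ones.

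The network-forming type VIII chains differed in how their counts divided between the sets. Col8a1, the alpha 1 chain found in vessel walls and around injured tissue, had 104 CPM in matrix-high barcodes of the combination library (94.0 to 114) and 113 CPM in those of the IL-15SA library (95.5 to 134). Its remaining barcodes held 6.27 and 3.24 CPM. Col8a2, the alpha 2 chain best known from the corneal endothelium, had 5 UMIs in matrix-high and 193 UMIs in remaining barcodes of the combination library, that is 1.28 CPM (0.415 to 2.98) and 6.14 CPM (5.31 to 7.07). In the IL-15SA library it had 3 and 139 UMIs, 2.38 CPM (0.490 to 6.95) and 4.69 CPM (3.94 to 5.54). The matrix-high level of Col8a2 was 0.208 times its remaining level in the combination library (0.0668 to 0.494) and 0.507 times in the IL-15SA library (0.103 to 1.51). In the remaining barcodes both chains were counted, with 4 barcodes that held both among 178 with Col8a1 and 173 with Col8a2 in the combination library, and 1 among 85 and 121 in the IL-15SA library. Col10a1, the related chain of growth plate cartilage, had 1 UMI in all, in a remaining barcode of the combination library.

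The basement membrane chains Col4a1 and Col4a2, which form 1 helix and are read from the joined starts shown above, were both matrix-high. Col4a1 had 46.8 CPM in the combination library (40.3 to 54.1) and 74.5 CPM in the IL-15SA library (60.2 to 91.2), and Col4a2 had 29.7 CPM (24.5 to 35.6) and 23.8 CPM (16.04 to 33.9). Per kilobase Col4a1 stood at 6.27 and Col4a2 at 4.48 CPM in the combination library, and at 9.98 and 3.59 CPM in the IL-15SA library. Col4a5, a chain of kidney, lung and muscle basement membranes, had 63 UMIs (16.1 CPM) and 28 UMIs (22.2 CPM). Its neighbour Col4a6, whose start lies 1309 bases away on the other strand, had 1 UMI in each matrix-high set. Col4a3 and Col4a4, the partners of Col4a5 in the glomerulus, had 1 UMI each in matrix-high barcodes of the combination library and 0 in those of the IL-15SA library.

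A similar gap between partner chains was seen for the beaded filaments of type VI collagen. Col6a1, the alpha 1 chain, had 232 UMIs (59.3 CPM, 51.9 to 67.5) in matrix-high barcodes of the combination library and 89 UMIs (70.5 CPM, 56.7 to 86.8) in those of the IL-15SA library. Col6a2, which joins the same monomer, had 4 and 0 UMIs there, and Col6a3, the chain that completes it, had 2 and 0. In CPM per kb Col6a1 stood at 13.5 in the combination library and 16.1 in the IL-15SA library. Whether the near absence of Col6a2 and Col6a3 reflects their transcripts or the assignment of reads was not tested.

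Of the collagens that sit on fibrils or carry long side chains, Col16a1 and Col18a1 were matrix-high. Col16a1, a fibril-associated chain, had 43.0 CPM (36.7 to 49.97) in the combination library and 45.2 CPM (34.2 to 58.5) in the IL-15SA library. Col18a1, the source of endostatin, had 15.3 CPM (11.7 to 19.7) and 23.8 CPM (16.04 to 33.9). Its basement membrane relative Col15a1 had 2 and 0 UMIs in matrix-high and 55 and 40 in remaining barcodes. Col19a1 had 4 and 0 UMIs in matrix-high and 46 and 54 in remaining barcodes, and Col9a3 had 0 and 0 in matrix-high and 39 and 51 in remaining barcodes. For Col9a3, 0 matrix-high UMIs allow up to 0.767 CPM in the combination library and 2.38 CPM in the IL-15SA library, at 3 counts. Col9a3 shares 234 exonic bases with Tcfl5 on the other strand, so part of its count could belong to that gene. Together Col8a2, Col19a1, Col15a1, Col9a3 and Col11a2 had 12 and 4 matrix-high UMIs against 355 and 310 remaining ones in the combination and IL-15SA libraries. The remaining sets also held far more UMIs in all. In CPM their summed matrix-high level was 0.272 times the remaining one in the combination library (0.139 to 0.480). In the IL-15SA library it was 0.303 times (0.0821 to 0.784). These 5 were grouped as the named members not higher in matrix-high barcodes, so both ratios restate the grouping. Their summed remaining level in the combination library was 1.08 times that in the IL-15SA library (0.925 to 1.26).

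The 27 members under 50 UMIs added little. The fullest were Col23a1, a transmembrane collagen, with 25 UMIs in the combination library and 11 in the IL-15SA library, and Col20a1 with 21 and 13. Col14a1, which binds fibrils, had 11 of its 15 UMIs of the combination library in matrix-high barcodes, and Col5a3 had 7 of 9. Col7a1, the anchoring fibril of skin, had 9 UMIs in the combination library and 0 in the IL-15SA library. Col2a1, the cartilage fibril, had 2 UMIs in all. None of these counts can carry a comparison between the libraries.

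In matrix-high barcodes, collagen levels in the combination library lay slightly under those in the IL-15SA library. The collagen sum was 0.896 times as high in the combination library as in the IL-15SA library (0.849 to 0.946), and 10 of the 11 matrix-high members had a ratio under 1. The interval lay under 1 for 2 of them, and the same counts were not made over all genes. Col4a1 was at 0.628 of its IL-15SA level (0.487 to 0.814) and Col3a1 at 0.458 (0.323 to 0.655). Col4a2 was the exception at 1.25 (0.829 to 1.93). The ratios of Col1a2, Col1a1, Col8a1, Col6a1 and Col16a1 were between 0.841 and 0.951, each with an interval that held 1. At 2000 to 3000 UMIs per barcode, 8 of the 11 had a ratio under 1 and 0 had an interval wholly under 1, with Col4a1 at 0.826 (0.399 to 1.84). Without their 3 fullest barcodes in each library, Col4a1 had a ratio of 0.674 (0.515 to 0.889) and Col3a1 of 0.811 (0.468 to 1.46). The selection genes themselves had a summed ratio of 1.07 (1.04 to 1.11). By role, the fibrillar collagens summed to 948.9 CPM in the combination library and 1044 CPM in the IL-15SA library, a ratio of 0.909 (0.853 to 0.969). The basement membrane collagens summed to 93.3 and 121 CPM, a ratio of 0.770 (0.636 to 0.936), while the ratios of the short-chain network, beaded filament and fibril-associated groups, at 0.908, 0.869 and 1.01, had intervals that held 1.

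Counted by fold, with 1 CPM added to both values, 11 members reached 20 CPM in a matrix-high set. In the combination library 0 of them passed 2-fold upward and 1, Col3a1, passed it downward. Of 6394 genes, 0.266% were 2-fold higher and 0.485% 2-fold lower. The median log2 ratio was -0.25 over the members and -0.02 over all these genes. The Col3a1 call ended without the barcodes that held 2 or more Dcn UMIs, where its ratio was 0.694 (0.415 to 1.19), and in barcodes of 2000 to 3000 UMIs the ratio was 1.62 with an interval of 0.346 to 15.2.

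**Figure D4:**
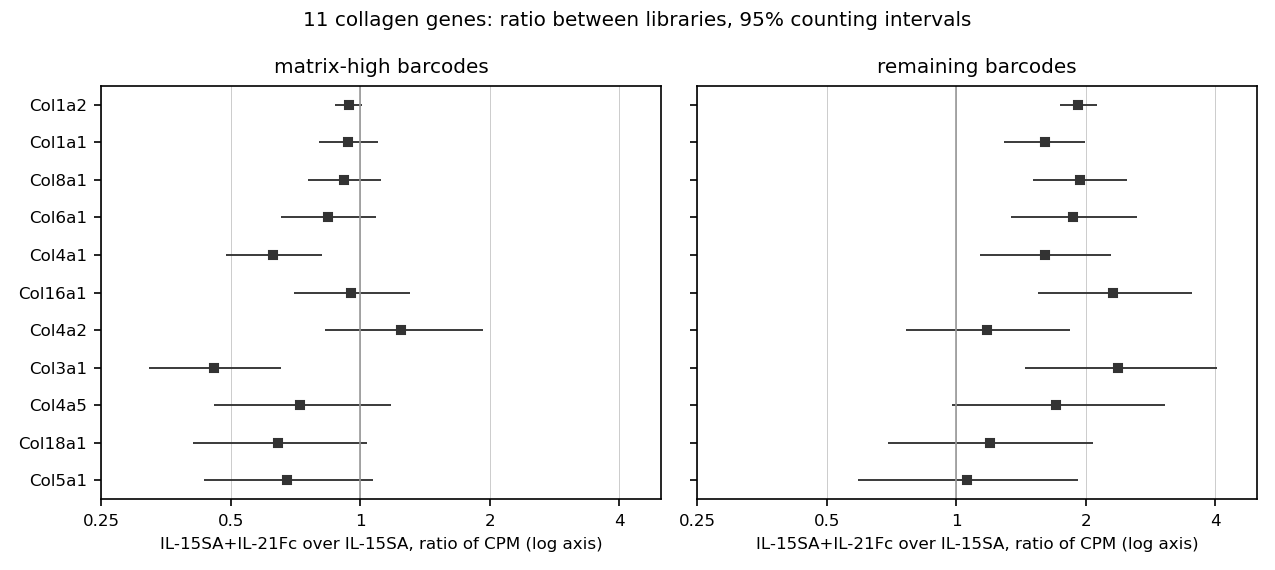
Ratio of CPM in the combination library to CPM in the IL-15SA library (log axis, squares, with 95% counting intervals) for 11 collagen genes in matrix-high barcodes on the left and remaining barcodes on the right, with a line at 1. On the left only Col3a1 and Col4a1 have intervals wholly under 1, and on the right 7 genes have intervals wholly above 1.

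In the remaining barcodes the order was turned round. The collagen sum was 1.64 times as high in the combination library as in the IL-15SA library (1.54 to 1.75), and all 11 of the same members had a ratio above 1, 7 of them with an interval above 1. Here too the counts of members were not made over all genes. Col1a2 had 37.9 CPM in the combination library (35.8 to 40.1) and 19.7 CPM in the IL-15SA library (18.2 to 21.4), a ratio of 1.92 (1.74 to 2.12). Col16a1 had 2.74 CPM and 1.18 CPM, a ratio of 2.32 (1.55 to 3.54), and Col3a1 had 1.85 CPM and 0.776 CPM, a ratio of 2.38 (1.44 to 4.04). The 4 members Col1a2, Col1a1, Col8a1 and Col8a2 reached 5 CPM, and 0 were past 2-fold in either direction with 1 CPM added, against 0.238% of 9234 genes higher and 0.119% lower. Their median log2 ratio was 0.68 and that of all these genes 0.00. The selection genes had a ratio of 1.84 (1.74 to 1.94) in these barcodes. Barcodes that are matrix-high were also 9.39% of the combination library and 3.82% of the IL-15SA library, and the part of that difference in the level of the remaining barcodes was not tested.

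Each member's remaining level was also set against its own matrix-high level. In the combination library that share lay between 4.60% (Col1a1) and 8.91% (Col3a1) for the 11 matrix-high members. In the IL-15SA library it lay between 1.72% (Col3a1) and 5.68% (Col4a2). The other 5 named members had a remaining level above the matrix-high one in both libraries, mostly within counting error. In the combination library the matrix-high over remaining interval lay under 1 for Col8a2 (0.0668 to 0.494) and Col9a3 (0 to 0.797). The interval held 1 for Col19a1, Col15a1 and Col11a2 there, and for all 5 in the IL-15SA library.

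The depth of a barcode bore on the remaining level. In the combination library, across 4 equal groups of remaining barcodes ordered by depth, with medians of 1397, 2017, 2816 and 4417 UMIs, Col1a2 had 10.7, 8.88, 9.40 and 13.3 UMIs per 100 barcodes. In the IL-15SA library, with medians of 1567, 2465.5, 3764 and 6099 UMIs, it had 8.64, 6.50, 5.29 and 8.58. Col1a2 UMIs per barcode therefore changed little while depth grew several-fold, and its CPM was lower in deeper groups, 27.2 against 76.5 CPM in the deepest and the shallowest group of the combination library. In matrix-high barcodes, split the same way, Col1a2 had 57.7, 122, 286 and 536 UMIs per 100 barcodes in the combination library. In those of the IL-15SA library it had 75, 124, 352.5 and 704. A deeper barcode needs more selection UMIs to reach 0.15%, so a climb of matrix transcripts with depth is built into this set. Nothing is read from the climb of Col1a2 there. Among the remaining barcodes, Col8a2 and Ncr1 climbed with depth. Col8a2 had 1.14 UMIs per 100 barcodes in the shallowest and 2.77 in the deepest group of the combination library, and 0.844 and 3.62 in those of the IL-15SA library. Ncr1 had 239.7 and 686 in the combination library and 245 and 937 in the IL-15SA library.

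**Figure D5:**
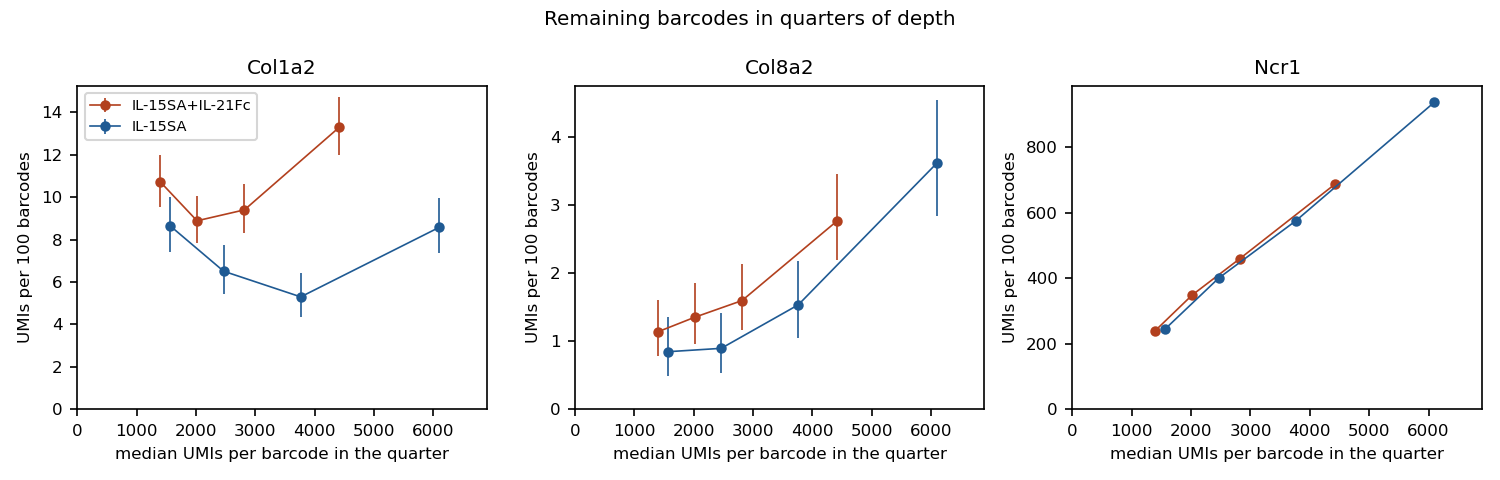
UMIs per 100 remaining barcodes (vertical axis, with 95% Poisson intervals) of Col1a2, Col8a2 and Ncr1 against the median depth of each depth group, for the combination library (red) and the IL-15SA library (blue). Ncr1 and Col8a2 climb with depth in both libraries, while Col1a2 stays between 5.29 and 13.3 UMIs per 100 barcodes.

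Because the remaining barcodes of the IL-15SA library were deeper, the comparison was repeated per barcode and at matched depth, both chosen after the values were seen. Remaining barcodes held 22.9 collagen UMIs per 100 in the combination library and 18.4 in the IL-15SA library, a ratio of 1.245 (1.17 to 1.33). Among remaining barcodes of 2000 to 3000 UMIs the ratio of CPM was 1.24 (1.08 to 1.42). At that depth 7 of the 11 members had a ratio above 1, and the interval lay above 1 for Col1a2 at 1.44 (1.16 to 1.78) and Col8a1 at 1.89 (1.10 to 3.41), while Col1a1 stood at 0.775 (0.477 to 1.27). In matrix-high barcodes the collagen sum was 427 UMIs per 100 barcodes in the combination library and 562 in the IL-15SA library, a ratio of 0.761 (0.721 to 0.804), and the ratio of CPM at 2000 to 3000 UMIs was 0.936 (0.804 to 1.09).

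With every barcode thinned to 1000 UMIs, for which none had to be left out, 56.3% of matrix-high barcodes of the combination library held a collagen UMI (53.4 to 59.2%) and 61.3% of those of the IL-15SA library (55.7 to 66.6%). The same share was 8.10% in remaining barcodes of the combination library (7.61 to 8.62%) and 5.33% in those of the IL-15SA library (4.85 to 5.84%). Unthinned, the shares were 73.9% and 78.4% in matrix-high and 16.7% and 13.5% in remaining barcodes. The remaining barcodes, which carry the NK markers, are the comparison for the matrix-high share, and whether their collagen UMIs came from free RNA was not tested. After thinning, Col1a2 alone was in 41.2% of matrix-high barcodes in the combination library and 42.8% in the IL-15SA library, against 4.04% and 2.33% of remaining ones.

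Matrix-high barcodes often held several members at once. Unthinned, 29.8% of them in the combination library and 38.4% in the IL-15SA library held 3 or more different collagen genes, against 0.364% and 0.223% of remaining barcodes. Of matrix-high barcodes with a Col1a1 UMI, 88.0% also held Col1a2 in the combination library and 84.1% in the IL-15SA library, and of those without one, 53.0% and 54.0% did, but the barcodes with Col1a1 were deeper. Among remaining barcodes, where depth differed less, Col1a2 was in 22.0% of those with Col1a1 and 7.97% of those without in the combination library, and in 20.7% and 5.22% in the IL-15SA library. For Col8a2 these shares were closer, at 8.67% (15 of 173) and 8.22% in the combination library. In the IL-15SA library they were 7.44% (9 of 121) and 5.41%, with median depths of 4699 and 3050 UMIs. Close shares were not particular to Col8a2. Col4a2 had 11.6% and 8.21% in the combination library and 22.9% and 5.37% in the IL-15SA library. Col8a1 had 20.8% and 8.03%, then 9.41% and 5.40%, in the same order. Col19a1 had 2.56% and 8.25%, then 18.75% and 5.36%. No interval was computed for these shares. The collagen UMIs of a barcode were uneven, since the fullest 117 of the 1168 matrix-high barcodes gave 38.7% of them in the combination library and the fullest 32 of 320 gave 38.5% in the IL-15SA library.

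Genes other than collagens and selection genes, at 50 CPM or more, were ranked by the lower of both libraries' matrix-high over remaining ratios. The 8 highest were Dcn, Ogn, Omd, C3, Spon2, Vldlr, Lama5 and Cp. This ranking is by size of ratio and does not measure likeness to the collagens. Dcn had ratios of 52.7 in the combination library and 167 in the IL-15SA library, against 15.6 and 28.5 for the collagen sum. The Dcn ratios describe a few barcodes, since 12 and 5 barcodes held 392 of its 400 and 124 of its 128 matrix-high UMIs. Dcn, Ogn and Omd encode small proteoglycans of the matrix, Lama5 a laminin chain of basement membranes and C3 the central complement protein. Lama5 had 276 CPM in matrix-high and 12.9 CPM in remaining barcodes of the combination library, and 318 and 7.86 CPM in those of the IL-15SA library. Ogn had 202 and 7.96 CPM in the combination library and 140.3 and 2.53 CPM in the IL-15SA library.

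Genes that make, bind and cut collagen were counted from fixed lists. Of 18 folding and modification genes, 13 reached 20 CPM in matrix-high barcodes, and 0 were past 2-fold between the libraries, with a median log2 ratio of -0.16. Of all 6394 genes at that floor, 0.266% were 2-fold higher and 0.485% 2-fold lower, so 0 of 13 is near the share over all genes. Serpinh1, the procollagen chaperone, had 516.8 CPM in matrix-high and 32.4 CPM in remaining barcodes of the combination library, and 595 and 19.4 CPM in those of the IL-15SA library. P3h3, P3h4 and Fkbp10, which modify or fold collagen chains, had 54.2, 50.4 and 47.8 CPM in matrix-high and 2.64, 3.25 and 4.58 CPM in remaining barcodes of the combination library. Ppib and P4hb, which serve many secreted proteins, were closer between the sets, Ppib at 648.7 and 588 CPM and P4hb at 273 and 187 CPM in matrix-high and remaining barcodes of the combination library. Among the 13 genes at 20 CPM, P4hb and Plod1, a lysyl hydroxylase, had the ratios farthest from 1 between the matrix-high sets, at 0.749 and 0.701. Under that floor P4ha2, a prolyl hydroxylase subunit, had 8.18 CPM in the combination library and 19.0 CPM in the IL-15SA library, a ratio of 0.430 (0.246 to 0.763).

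Of 11 processing and crosslinking genes, Loxl3, a crosslinking oxidase, was the 1 that reached 20 CPM, at 58.6 CPM in the combination library and 70.5 CPM in the IL-15SA library. Bmp1, the procollagen C-proteinase, had 13.8 and 8.72 CPM. Adamts14, an N-proteinase, was higher in remaining barcodes, at 18.4 CPM in matrix-high and 55.6 CPM in remaining barcodes of the combination library and 12.7 and 49.2 CPM in those of the IL-15SA library. Of 11 proteoglycan and matrix genes, Fn1 and Dcn reached 20 CPM. Fn1, fibronectin, had 423 CPM and 487 CPM in matrix-high barcodes of the combination and IL-15SA libraries, and 22.0 CPM and 10.3 CPM in remaining ones. With a ratio of 2.13 in remaining barcodes (1.86 to 2.45), Fn1 was the 1 gene of these 5 lists past 2-fold at the floors of 20 CPM (matrix-high) and 5 CPM (remaining) with 1 CPM added. Genes under the floors had larger ratios in remaining barcodes, among them Dcn at 3.196 (1.86 to 5.75) and P3h4 at 2.67 (1.81 to 4.02). Dcn had 102 CPM and 101 CPM in matrix-high barcodes, with 392 of 400 and 124 of 128 UMIs in the 12 and 5 barcodes described above, and Bgn had 11.8 and 9.51 CPM.

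Of 10 collagen receptors, Ddr2, a receptor kinase for fibrillar collagen, was matrix-high, at 59.3 and 3.50 CPM in matrix-high and remaining barcodes of the combination library and 59.4 and 2.50 CPM in the IL-15SA library. Itgb1, the shared beta chain of collagen integrins, was even across the split, at 290.2 and 301 CPM in the combination library. Under the floor of 20 CPM, Itga2, an alpha chain of these integrins, had 27 matrix-high UMIs in the combination library and 1 in the IL-15SA library. Its ratio of CPM was 8.71 (1.44 to 357). Mrc2 of the same list went the other way, with 0 and 3 UMIs and an interval up to 0.781. Lair1, an inhibitory collagen receptor of leukocytes, was higher in remaining barcodes, at 7.16 and 31.0 CPM in the combination library and 9.51 and 41.2 CPM in the IL-15SA library. Of 12 degradation genes, 4 reached 20 CPM in matrix-high barcodes and 0 of these 4 were past 2-fold between the libraries. Over all genes at that floor 0.266% were higher and 0.485% lower. Mmp13, a collagenase under that floor, had 0 UMIs in matrix-high barcodes of the combination library and 18 in those of the IL-15SA library, all 18 in 1 barcode. Timp1 and Timp2, inhibitors of metalloproteinases, had 305 and 139 CPM in matrix-high barcodes of the combination library and 299 and 139.5 CPM in those of the IL-15SA library. Mmp14, a membrane-bound collagenase, had 55.2 and 71.3 CPM there, and Mmp9, a gelatinase, had 20.7 and 23.0 CPM.

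Marker lists place the matrix-high barcodes apart from the sorted cell type, without removing it. The 10 NK markers summed to 7327 CPM in matrix-high and 33416 CPM in remaining barcodes of the combination library, and to 7673 and 37313 CPM in those of the IL-15SA library. After thinning to 1000 UMIs, an Ncr1 UMI was present in 32.4% of matrix-high and 74.7% of remaining barcodes of the combination library, and in 33.75% and 73.1% of those of the IL-15SA library. Unthinned, the shares were 54.5% and 92.4% in the combination library and 65.0% and 94.0% in the IL-15SA library. Ncr1 UMIs per 100 matrix-high barcodes were 101, 101, 124 and 136 in the combination library from the shallowest to the deepest depth group. In the IL-15SA library they were 95, 106, 139 and 170, so they were higher in the deepest than in the shallowest group of both. Matrix-high barcodes with Ncr1 held 1135 CPM of collagens and those without held 1468 CPM in the combination library, and 1397 and 1487 CPM in the IL-15SA library. Of 8 fibroblast markers, 7 and 6 had a UMI in matrix-high barcodes of the combination and IL-15SA libraries, where they summed to 344 and 441 CPM, against 769 and 1029 CPM in remaining barcodes. Thy1, which mouse NK cells also express, gave the largest part of that sum, at 150.3 and 238 CPM in matrix-high and 761 and 1026 CPM in remaining barcodes, and Fap had 0 UMIs in both matrix-high sets. Of the other fibroblast markers, Dcn, Pdpn, Pdgfra and Pdgfrb ran opposite to Thy1 in both libraries, and the rest had too few UMIs to place. Lum had 1 and 2 UMIs in matrix-high barcodes of the combination and IL-15SA libraries and 4 and 0 in remaining ones. Dpt had 4 and 0, against 4 and 3. Pdpn, podoplanin, had 75.4 CPM in matrix-high and 5.03 CPM in remaining barcodes of the combination library, and 85.6 and 2.13 CPM in those of the IL-15SA library. Pdgfra and Pdgfrb, receptors for platelet-derived growth factor, had few UMIs. In the combination library their matrix-high over remaining ratios were 9.43 (5.21 to 17.2, 27 against 23 UMIs) and 13.7 (7.28 to 26.6, 29 against 17). In the IL-15SA library they were 19.6 (7.57 to 49.4, 10 against 12) and 21.1 (7.60 to 57.9, 9 against 10).

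The other lists summed to under 50 CPM each in matrix-high barcodes. The 6 pericyte and smooth muscle markers summed to 4.09 and 0.793 CPM in the combination and IL-15SA libraries, with Rgs5 and Acta2 at 0 in both. The 6 endothelial markers summed to 19.7 and 21.4 CPM, nearly all of it Pecam1, with Cdh5, Kdr, Tek and Cldn5 at 0. The 6 epithelial markers summed to 43.2 and 42.8 CPM, which was 5.12 (4.20 to 6.24) and 4.60 (3.37 to 6.17) times their remaining level. Nearly all of it was Krt18, a keratin, at 39.6 CPM in matrix-high and 3.66 CPM in remaining barcodes of the combination library and 41.2 and 2.09 CPM in those of the IL-15SA library, while Epcam had 4 and 0 UMIs in the matrix-high sets. The 7 macrophage markers summed to 13.04 and 12.7 CPM with Adgre1, Csf1r and C1qa at 0, the 6 T cell markers to 34.5 and 48.3 CPM with Cd3e at 0, and the 6 neutrophil and mast cell markers to 3.84 and 3.96 CPM with Csf3r and Mcpt4 at 0. Which cells the matrix-high barcodes came from was not tested, and more such cells in a library cannot be told apart from more transcripts per such cell wherever all barcodes are summed.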

How the data were processed

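Both libraries were GEXSCOPE microwell libraries, and the deposited values are raw UMI counts per gene and barcode, as the authors left them, with no normalization. The submitters' processing notes list cutadapt, featureCounts, Seurat 4 and Scanpy without roles, and mm10; the aligner, annotation and cell calling were steps not given in the sources used here. There were 35336180 UMIs over 12435 barcodes in the combination library, against 30893388 over 8386 in the IL-15SA library. All barcodes were kept, doublets included.

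Counts were summed over matrix-high or remaining barcodes and divided by their UMIs. Intervals are exact at 95%: Poisson for CPM, conditional binomial for ratios, Clopper-Pearson for shares. UMIs that share amplification or a pooled cell suspension are not replicates, so intervals cover counting error only. Fold counts add 1 CPM and need 20 CPM (matrix-high) or 5 CPM (remaining) in 1 library. Members with 50 or more UMIs are named with levels; of other lists, the 3 with the largest summed matrix-high level and 2 with the log2 ratio farthest from 0. P3h3, P3h4, Fkbp10, P4ha2, Itga2, Mrc2, Mmp13, Lum and the single markers of other cell types were named after their values were seen. Members and lists were chosen with earlier results of these data known. Python 3.11.15, numpy 2.4.6, scipy 1.17.1, pandas 2.3.3 and matplotlib 3.10.9 were used.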

Additional observations from a re-analysis of the deposited data

Results flagged for a closer look

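The collagen sum differed between the libraries in opposite directions in the 2 sets of barcodes, with both counting intervals away from 1. It was 0.896 times as high in the combination library as in the IL-15SA library in matrix-high barcodes and 1.64 times as high in remaining barcodes. Of single members, Col4a1 did the same at 0.628 and 1.61, and Col3a1 at 0.458 and 2.38. The matrix-high value of Col3a1 became 0.811 (0.468 to 1.46) without its 3 fullest barcodes in each library and 0.694 (0.415 to 1.19) without the Dcn barcodes, and at 2000 to 3000 UMIs those of Col3a1 and Col4a1 were 1.62 (0.346 to 15.2) and 0.826 (0.399 to 1.84). With 1 library in each group, the difference between these ratios was not tested, and depth per barcode and the share of matrix-high barcodes differ between the libraries as well.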

How the results depend on the processing

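No paired analysis was possible because 1 library stands against 1 library, with no replicates to pair. The collagen sum ratio between the libraries kept its direction in both sets of barcodes under all 14 alternatives run for it. These alternatives reuse the same counts and are no separate support, and some could change little. Asking for 200 genes and at most 20% mitochondrial UMIs removed 5 barcodes of the combination library and 0 of the IL-15SA library. In matrix-high barcodes the ratio was 0.847 at a threshold of 0.30%, 0.835 without Cald1 among the selection genes and 0.761 per barcode. At 2000 to 3000 UMIs its interval, given above, held 1. In remaining barcodes it was 1.78 at 0.30%, 1.51 as a mean over barcodes, 1.245 per barcode and 1.24 at 2000 to 3000 UMIs. The matrix-high over remaining ratio of the combination library was 12.8 at 0.30%, 14.8, 14.5, 12.2 and 12.8 without Sparc, Cald1, Pcolce and Lrp1, 12.9 as a mean over barcodes, 16.5 without the 5% deepest barcodes, 18.7 per barcode and 18.7 at 2000 to 3000 UMIs. That of the IL-15SA library was 23.2 without Pcolce, 25.6 without Lrp1, 22.1 as a mean, 31.0 without the deepest, 30.5 per barcode and 24.7 at 2000 to 3000 UMIs. Matrix-high barcodes were 11.6% of the combination library and 5.38% of the IL-15SA library at 0.10%, 4.74% and 1.86% at 0.30%, 7.20% and 3.16% with at least 4 selection UMIs, 7.73% and 2.99% without Cald1, 6.34% and 2.53% without Pcolce, 7.05% and 2.80% without Lrp1, and 5.10% and 3.06% at 2000 to 3000 UMIs. For the combination library alone the share moved to 8.74% without Sparc and 8.45% without the deepest barcodes. The thinned share of matrix-high barcodes with a collagen UMI was 50.7% and 50.1% at 0.10%, 68.3% and 75.6% at 0.30% and 59.5% and 67.3% without Cald1 in the combination and IL-15SA libraries. In the combination library alone it moved to 62.9% with at least 4 selection UMIs, 61.0% without Pcolce, 59.9% without Lrp1 and 61.3% at 2000 to 3000 UMIs. In remaining barcodes that share was 9.87% and 6.17% at 0.30% and 9.36% and 5.98% without Pcolce in the combination and IL-15SA libraries. In the combination library alone it moved to 8.73% with at least 4 selection UMIs, 8.71% without Cald1, 9.05% without Lrp1 and 7.07% at 2000 to 3000 UMIs. The count of members 2-fold lower in matrix-high barcodes, 1 as reported, was 2 at 0.30%, 0 without Lrp1, 0 with 5 CPM added, 2 with no floor and 0 without barcodes with 2 or more Dcn UMIs, and that of members 2-fold higher was 2 with no floor. Members 5-fold higher in matrix-high barcodes of the combination library numbered 7 with 5 CPM added. Of single-gene ratios whose interval had been away from 1, 3 reversed: Col8a2 in remaining barcodes at 0.994 per barcode, and Col3a1 in matrix-high barcodes at 1.62 and Col1a1 in remaining barcodes at 0.775 at 2000 to 3000 UMIs. Counting also ratios whose interval held 1, members under 1 in remaining barcodes, 0 of 11 as reported, numbered 4 at 2000 to 3000 UMIs, 3 per barcode, 1 as a mean over barcodes and 1 without the deepest barcodes, and members above 1 in matrix-high barcodes, 1 as reported, numbered 3 at 2000 to 3000 UMIs and 2 without the deepest. The per-barcode, depth-matched and Dcn settings were chosen after seeing the data, and the cause of these shifts was not tested. At a threshold of 1.0% 1 barcode of the combination library and 0 of the IL-15SA library remained matrix-high, so no value was obtained. Counts under about 50 UMIs limit most members, and 1 library per group limits all.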
